A study of Xenopus laevis with 12 samples.

Results

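The 16 genes described here encode proteins of the growth cone and of axon outgrowth in the frog Xenopus laevis. They are both homeologs, marked .L and .S for the long and the short subgenome, of 8 symbols: the stathmins stmn1, stmn2, stmn3 and stmn4, doublecortin (dcx), gap43, basp1 and fascin (fscn1). The symbols were chosen by large measured values in neurobots, with stmn1.L, stmn2.L, stmn2.S, stmn3.L, stmn4.L, gap43.L, dcx.L, fscn1.L and basp1.L as the leading genes, and every homeolog of a chosen symbol was then taken. All 16 were found among the 44478 genes counted. Values of neurobots, and their differences from the other bots, are therefore a description of the genes picked and carry no test, while sham neurobots against biobots did not enter the choice and was tested.

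Bulk RNA was sequenced from 12 pools of whole bots, 4 of each type. Neurobots (NB1 to NB4) are animal caps, the upper ectoderm excised from a stage 9 embryo, that were implanted with clumps of animal cap cells kept dissociated for hours, a treatment that turns them into neural precursors. Sham neurobots (SH1 to SH4) received clumps of cells that were reaggregated at once after dissociation. Biobots (BB1 to BB4) are animal caps that healed with no implant and became ciliated spheres. The implanted cells in both implanted types came from many embryos, and the age of the bots at RNA extraction is not given in the sources used here. Pools held 12 to 14 neurobots, 5 to 6 sham neurobots or 5 to 16 biobots. NB1 and BB1 were sent for sequencing first, in larger pools and without a sham pool, so that sham neurobots cannot be compared across submissions. Whether the pools of a type came from separate clutches is not given in the sources used here, so that p-values measure the spread between pools. The pools of a type were not evenly alike. A chi-square per degree of freedom, lower the more alike the counts of a pair of pools, was 7.58 for NB3 and NB4. It was 89.9 to 158 for the other neurobot pairs. SH3 and SH4 were at 12.3, the other sham pairs at 33.5 to 126, and the biobot pairs at 18.5 to 68.1. Why some pools were so alike was not tested.

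A growth cone is the motile tip of a growing axon, where dynamic microtubules enter from the shaft and actin bundles push out the front. Stathmins bind tubulin dimers and promote the disassembly of microtubules, and doublecortin binds and stabilizes the polymer. GAP43 and BASP1 are acylated proteins on the inner face of the growth cone membrane that are phosphorylated or bound by calmodulin, and fascin packs actin filaments into the stiff bundles of filopodia. STMN2, STMN3, STMN4, DCX and GAP43 are known as neuronal genes of vertebrates, whereas STMN1, BASP1 and FSCN1 are also made in dividing or migrating cells outside the nervous system.

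Total counts per library ran from 28633187 to 37985824 for neurobots, from 27265034 to 36028614 for sham neurobots and from 29664449 to 35995421 for biobots. Levels are given as FPKM, fragments per kilobase of gene and of sequencing depth, as deposited, so that genes of different length can be compared. The neuron label of the neurobots was checked with 8 genes of 6 neuronal markers. Of these, elavl3.L, which encodes an RNA-binding protein of early neurons, was at 1.43 to 2.63 FPKM in neurobots, 0 to 0.106 in sham neurobots and 0 to 0.01001 in biobots. The summed FPKM of all 8 was 42.8 to 52.5 in neurobots, 37.1 to 39.8 in sham neurobots and 45.6 to 48.2 in biobots, because syt1.L alone had 45.1 to 47.4 FPKM in biobots. Without syt1.L, a trimming made after its values were seen, the sums were 15.5 to 26.96 FPKM in neurobots, 0.785 to 2.11 FPKM in sham neurobots and 0.503 to 1.04 FPKM in biobots. In bulk RNA, fewer cells of a type and less RNA per cell cannot be told apart.

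In neurobots the levels of the 16 genes spanned a wide range. The means ran from 1.25 FPKM for dcx.L to 119.6 FPKM for stmn1.S, with a median over the genes of 15.2 FPKM, against a median of 0.249 FPKM in sham neurobots and 0.0559 FPKM in biobots. A mean under 0.2 FPKM was found for 0 of the 16 genes in neurobots, for 8 in sham neurobots and for 10 in biobots. Ranked from high to low, the ranges of neighbouring genes over the pools mostly overlapped. Such ranges leave out that all genes were measured in the same libraries. In each of NB1 to NB4, stmn1.L was above basp1.L, stmn2.S above gap43.S and dcx.S above dcx.L, although these ranges overlapped. In neurobots only 1 of 15 neighbouring pairs had ranges that did not overlap, stmn3.S above stmn4.L, against 2 of 15 in sham neurobots and 3 of 15 in biobots. By their means, stmn1.S, gap43.L, stmn1.L, basp1.L, basp1.S and both stmn2 genes were at 29.0 FPKM and above, gap43.S, fscn1 and stmn3 between 7.997 and 17.8 FPKM, and stmn4 and dcx at 2.93 FPKM and below, where only the last step was one without overlap.

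**Figure D1:**
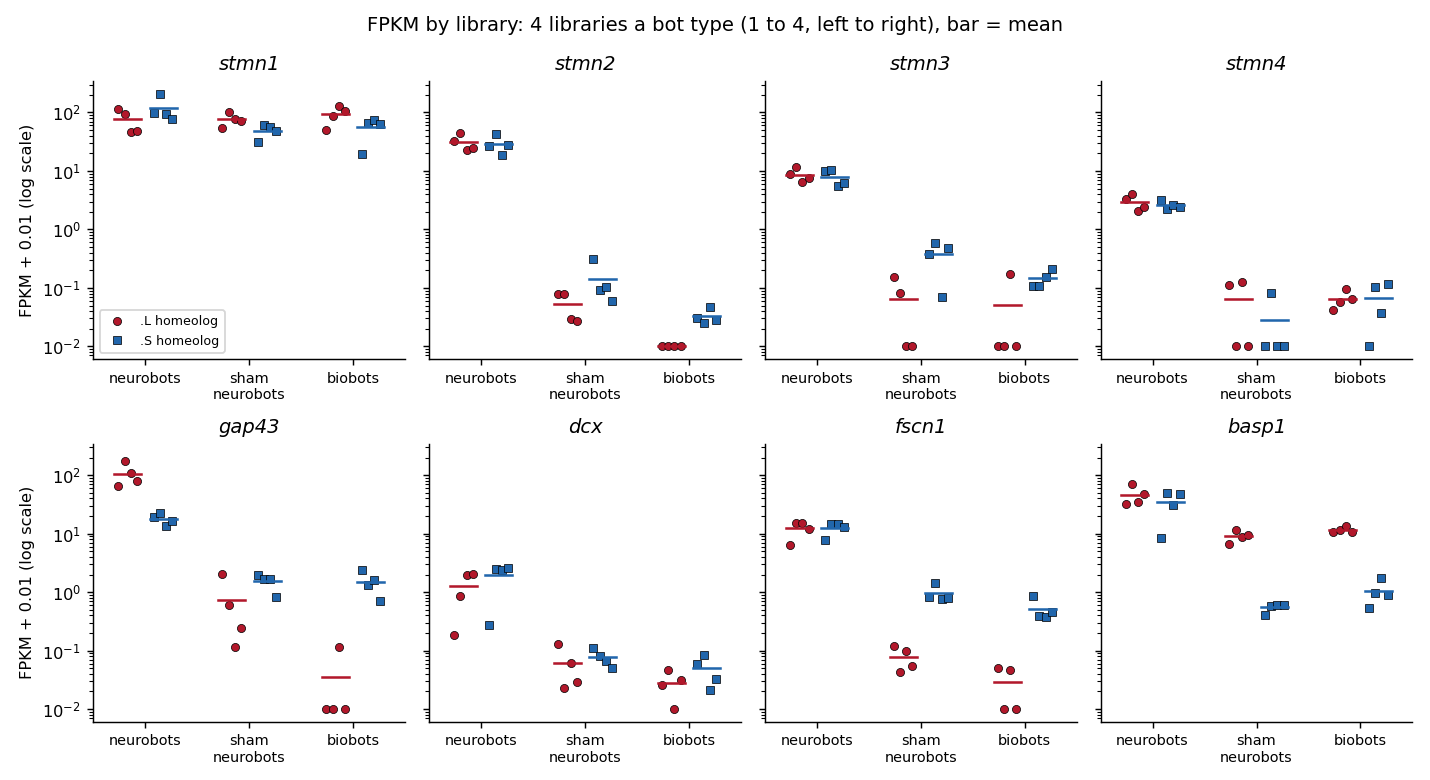
FPKM of the 16 genes in each library, on a log scale after adding 0.01, with the .L homeolog as circles, the .S homeolog as squares, libraries 1 to 4 of a bot type from left to right and the group mean as a bar. The neurobot points stand above both other groups for every gene but stmn1.L, dcx.L and dcx.S are lowest in NB1, and gap43.L is higher in SH1 and SH2 than in SH3 and SH4.

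Every neurobot library was above every biobot library for 15 of the 16 genes, and above every sham library for the same number. Over all genes tested, this was so for 19.7% against biobots and 20.4% against sham neurobots. The exception in both was stmn1.L. The number of genes called higher, at an adjusted p under 0.05 in edgeR's quasi-likelihood test, was 14 of 16 against biobots, where 19.5% of all genes tested were called higher, and 15 of 16 against sham neurobots, where 19.6% were. Since the neurobot values picked the genes, these counts are a property of the choice. Both comparisons share the neurobot libraries. Median log2 fold changes over all genes were 0.03 against biobots and 0.01 against sham neurobots.

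Among the stathmins, stmn1 was the one abundant in all 3 kinds of bot. In other vertebrates its product acts in the mitotic spindle of dividing cells as well as in neurons. stmn1.L (chromosome 2L, 62590083 to 62601631) had 115, 95.2, 45.8 and 48.9 FPKM in NB1 to NB4, 53.9, 100.4, 77.4 and 71.8 FPKM in SH1 to SH4, and 49.8, 88.5, 130.4 and 107 FPKM in BB1 to BB4. The 3 groups overlapped. The log2 fold changes of -0.32 (SE 0.35) against biobots and -0.04 (SE 0.31) against sham neurobots were smaller than their standard errors. The order within the submissions differed: NB1 (115 FPKM) was above BB1 (49.8 FPKM), while the later pools averaged 63.3 ± 27.7 FPKM in neurobots and 109 ± 21.0 FPKM in biobots (SD, n = 3 each). Without NB1 and BB1 the log2 fold change was -0.83 (SE 0.28), and stmn1.L was the 1 gene of the 16 called lower. In that fit 4767 of all 25107 genes tested were called lower.

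stmn1.S (2S, 66435537 to 66446405) had 96.5, 209, 94.3 and 78.4 FPKM in NB1 to NB4, 30.7, 61.9, 55.7 and 47.7 FPKM in SH1 to SH4, and 19.4, 67.3, 75.1 and 64.3 FPKM in BB1 to BB4. Here the lowest neurobot library stood just above the highest biobot library, and NB2 stood far above its group. The log2 fold changes were 1.06 (SE 0.41) against biobots and 1.24 (SE 0.33) against sham neurobots. Of 13 proliferation genes, pcna.L and pcna.S together were also highest in NB2, at 217 FPKM, with 113 to 217 FPKM in neurobots, 48.7 to 76.9 FPKM in sham neurobots and 48.0 to 90.9 FPKM in biobots. The other 11, a division made after the values were seen, summed to 101 to 131 FPKM in neurobots, 71.3 to 77.9 FPKM in sham neurobots and 89.6 to 106 FPKM in biobots, and were highest in NB1. The part of proliferating cells in the stmn1 values was not tested.

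stmn2, whose product is a membrane-anchored stathmin of growing axons, was nearly absent outside neurobots. stmn2.L (6L, 133029564 to 133051976) had 32.0, 45.1, 23.1 and 25.04 FPKM in NB1 to NB4, 0.0700, 0.0680, 0.0197 and 0.0171 FPKM in SH1 to SH4, and 0 in all 4 biobot libraries. The sham values stood for 4, 4, 1 and 1 counts. The neurobot level was at least 2164-fold higher than the biobot level, taking 3 counts over the 4 biobot libraries as the floor, and 9.35 (SE 0.41) higher than the sham level on the log2 scale.

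stmn2.S (6S, 109312399 to 109335932) had 27.01, 42.7, 18.6 and 27.6 FPKM in NB1 to NB4, 0.305, 0.0822, 0.0955 and 0.0497 FPKM in SH1 to SH4, and 0.0207, 0.0156, 0.0373 and 0.0183 FPKM in BB1 to BB4. Its 3 groups did not overlap, and SH1 was the highest sham library. The log2 fold change was 10.17 (SE 0.40) against biobots and 7.70 (SE 0.50) against sham neurobots, or 8.496 without SH1. The biobot level rests on 5 counts in all and the sham level on 31. Both stmn2 genes had their highest neurobot level in NB2 and their lowest in NB3.

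stmn3 and stmn4, the other neuronal stathmins, were likewise high in neurobots alone, at lower levels than stmn2. stmn3.L (9_10L, 18505939 to 18512204) averaged 8.63 ± 2.28 FPKM in neurobots, 0.0540 ± 0.0694 FPKM in sham neurobots and 0.0401 ± 0.0802 FPKM in biobots (SD, n = 4 each), and the biobot mean came from BB3 alone. stmn3.S (9_10S, 17526603 to 17534195) averaged 7.997 ± 2.55 FPKM in neurobots, 0.366 ± 0.219 FPKM in sham neurobots and 0.136 ± 0.0492 FPKM in biobots, and was the stathmin other than stmn1 with the most counts in sham libraries, 56 in all. stmn4.L (5L, 165099984 to 165106149) and stmn4.S (5S, 139509510 to 139516522) averaged 2.93 ± 0.870 and 2.59 ± 0.445 FPKM in neurobots, and neither passed 0.116 FPKM in any sham or biobot library.

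These differences were smaller than those of stmn2. Against biobots the log2 fold change was 7.65 (SE 0.74) for stmn3.L, 5.83 (SE 0.39) for stmn3.S, 5.63 (SE 0.46) for stmn4.L and 5.36 (SE 0.59) for stmn4.S. Without BB3 the biobot level of stmn3.L was 0. Against sham neurobots the log2 fold change was 7.17 for stmn3.L (8.23 without SH1), 4.38 for stmn3.S and 5.67 for stmn4.L (6.26 without SH3). stmn4.S had only 3 sham counts, all in SH2, and its neurobot level was 131 times the sham level (95% exact counting interval 44.7 to 640, 639.7 before rounding).

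As a family, the stathmins were almost all stmn1 outside neurobots. stmn1 made up 71.5%, 72.4%, 70.6% and 64.2% of the summed FPKM of stmn1 to stmn4 in NB1 to NB4, 98.8%, 99.5%, 99.8% and 99.6% in SH1 to SH4, and 99.8% in each of BB1 to BB4. The rest of the family in neurobots was 22.1% stmn2, 6.13% stmn3 and 2.10% stmn4 on average. The family total differed more between pools than its make-up: it was 421 FPKM in NB2 and 198 FPKM in NB3 and NB4, although stmn1 made up 72.4% of it in NB2 and 70.6% in NB3. The share of stmn1 in sham neurobots (99.4% ± 0.404) was 0.382 percentage points below that in biobots (99.8% ± 0.0292, SD, n = 4 each), with overlapping ranges and p = 0.0857 in a two-sided exact permutation test, whose smallest possible p is 0.0286. With counts in place of FPKM the difference was -0.547 points (exact p = 0.0286). Without SH1 it was -0.191 points (exact p = 0.171), where the smallest possible p of 3 against 4 libraries is 0.0571. The same p of 0.171 was found without SH2.

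**Figure D2:**
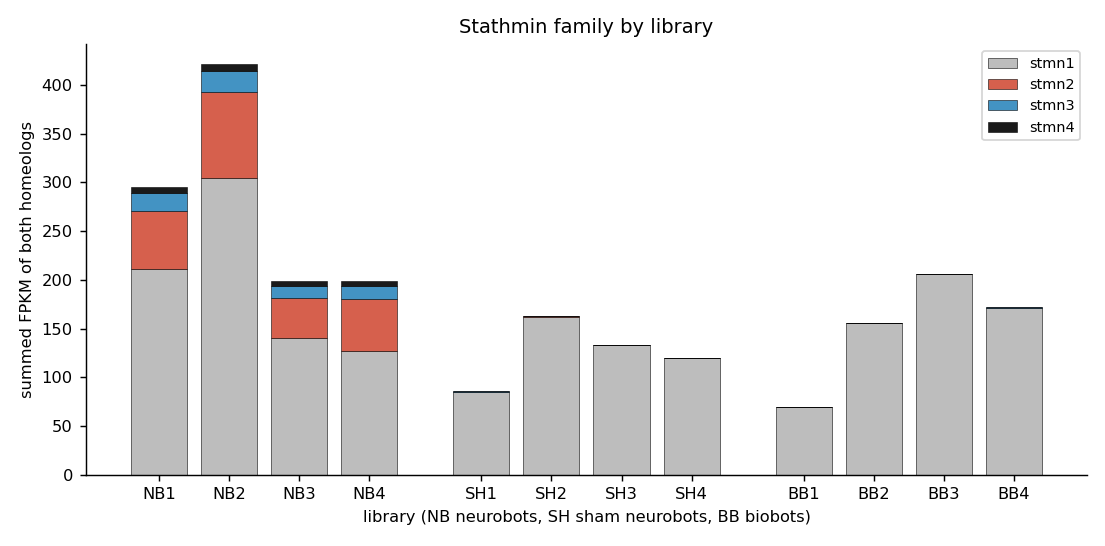
Summed FPKM of both homeologs of stmn1, stmn2, stmn3 and stmn4, stacked, in each of the 12 libraries. The part above stmn1 is visible in the 4 neurobot libraries, where stmn2 averaged 22.1% of the total, while stmn1 makes up 98.8% or more of every sham and biobot bar.

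Doublecortin was the lowest of the symbols in neurobots, and the one in which NB1 stood furthest from the other pools. Its product binds the microtubule lattice in migrating and newly formed neurons. dcx.L (8L, 43049171 to 43106444) had 0.176, 0.851, 1.96 and 2.02 FPKM in NB1 to NB4, 0.118, 0.0127, 0.0518 and 0.0192 FPKM in SH1 to SH4, and 0.0161, 0.0362, 0 and 0.0213 FPKM in BB1 to BB4. NB1 was the lowest neurobot library and stood only just above SH1. dcx.S (8S, 58779407 to 58837559) had 0.263, 2.45, 2.39 and 2.62 FPKM in NB1 to NB4, 0.102, 0.0693, 0.0576 and 0.0399 FPKM in SH1 to SH4, and 0.049995, 0.0751, 0.0112 and 0.0221 FPKM in BB1 to BB4. The log2 fold changes against biobots were 5.97 (SE 0.89) and 5.52 (SE 0.79), and those against sham neurobots 4.59 (SE 0.86) and 4.78 (SE 0.70), for dcx.L and dcx.S. Without SH1 the dcx.L difference from sham neurobots was 5.44.

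gap43 showed the largest contrast between its homeologs. gap43.L (2L, 3868349 to 3899996) had 65.2, 172, 109.5 and 80.1 FPKM in NB1 to NB4, 2.02, 0.593, 0.106 and 0.230 FPKM in SH1 to SH4, and 0, 0, 0.104 and 0 FPKM in BB1 to BB4. The groups did not overlap, although SH3 exceeded BB3 by little, and each of these last values stood for 2 counts. The neurobot level was 4144 times the biobot level, which rests on 2 counts (95% exact counting interval 1147 to 34222), and 7.11 (SE 0.71) above the sham level on the log2 scale, or 8.31 without SH1. gap43.S (2S, 27115671 to 27143188) had 18.9, 22.7, 13.5 and 16.2 FPKM in NB1 to NB4, 1.98, 1.65, 1.67 and 0.830 FPKM in SH1 to SH4, and 2.37, 1.302, 1.58 and 0.683 FPKM in BB1 to BB4. Sham neurobots and biobots overlapped throughout, and the neurobot level was 3.57 (SE 0.34) above biobots and 3.50 (SE 0.29) above sham neurobots on the log2 scale.

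basp1 was already well expressed without an implant, through its .L homeolog. basp1.L (6L, 81109496 to 81172204) had 32.1, 70.3, 35.1 and 47.7 FPKM in NB1 to NB4, 6.69, 11.5, 8.84 and 9.63 FPKM in SH1 to SH4, and 10.8, 11.7, 13.5 and 10.5 FPKM in BB1 to BB4. basp1.S (6S, 64901154 to 64959629) had 8.38, 49.3, 31.0 and 48.0 FPKM in NB1 to NB4, 0.395, 0.576, 0.588 and 0.598 FPKM in SH1 to SH4, and 0.528, 0.960, 1.76 and 0.895 FPKM in BB1 to BB4. Against biobots the log2 fold change was 1.97 (SE 0.25) for basp1.L and 5.02 (SE 0.57) for basp1.S, and against sham neurobots 2.29 (SE 0.28) and 5.94 (SE 0.55). basp1.L thus had the smallest neurobot difference of the 16 genes after the stmn1 pair.

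Both fascin genes reached about the same level in neurobots from different levels elsewhere. fscn1.L (9_10L, 95365233 to 95389901) had 6.33, 15.3, 15.2 and 12.2 FPKM in NB1 to NB4, 0.112, 0.0326, 0.0885 and 0.0438 FPKM in SH1 to SH4, and 0.0412, 0, 0.0370 and 0 FPKM in BB1 to BB4. fscn1.S (9_10S, 83071530 to 83089684) had 7.82, 14.4, 14.8 and 13.2 FPKM in NB1 to NB4, 0.817, 1.401, 0.750 and 0.787 FPKM in SH1 to SH4, and 0.845, 0.388, 0.366 and 0.442 FPKM in BB1 to BB4. In neurobots the ranges of both homeologs overlapped, while fscn1.S was the higher in every sham and biobot library. The log2 fold change against biobots was 9.27 (SE 0.60) for fscn1.L and 4.61 (SE 0.34) for fscn1.S, and against sham neurobots 7.41 (SE 0.44) and 3.70 (SE 0.29).

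**Figure D3:**
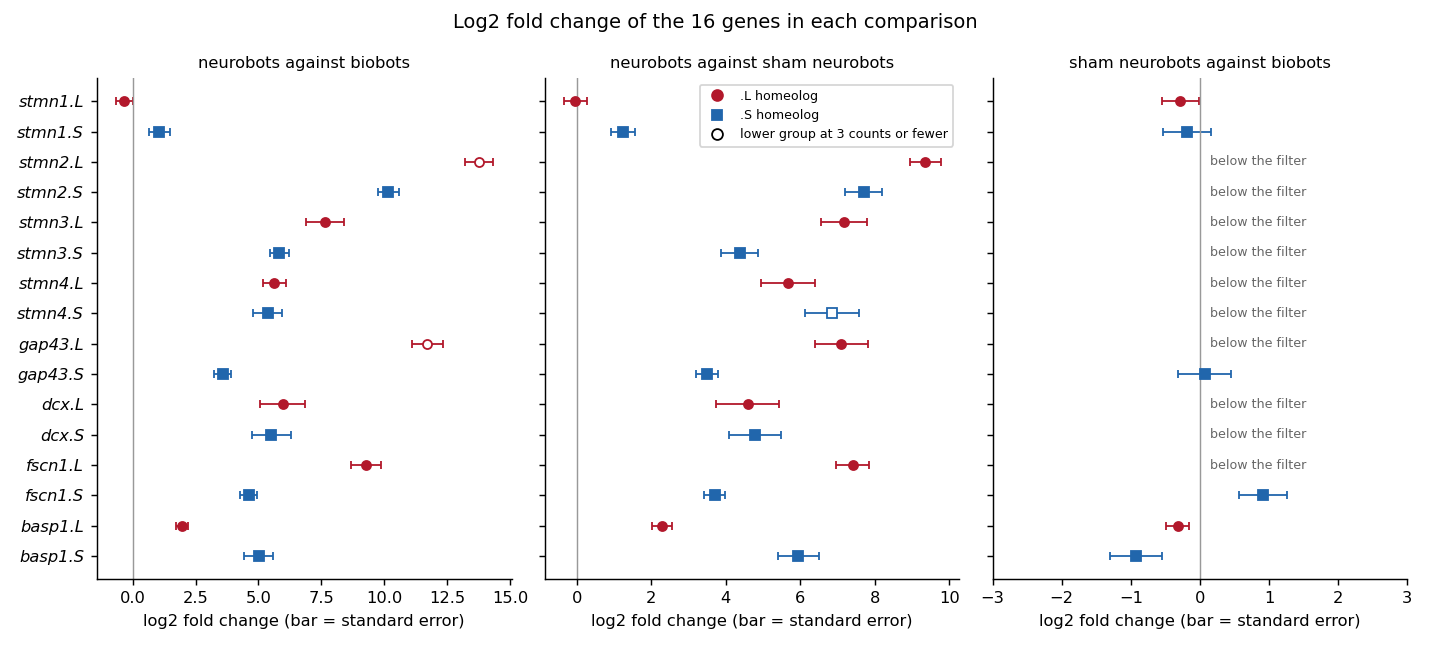
Log2 fold change with its standard error for the 16 genes in neurobots against biobots, neurobots against sham neurobots and sham neurobots against biobots, with different scales on the horizontal axes. Open symbols mark genes with 3 counts or fewer in the lower group, whose fitted values depend on the prior count and are no bound. 15 genes lie right of 0 in both neurobot panels, and the 6 genes tested in the third panel lie between -0.92 and 0.91.

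The neurobot pools differed from each other in the same genes. NB1, the pool of the first submission, was at 10.9% and 10.6% of the mean of NB2 to NB4 for dcx.L and dcx.S, at 19.6% for basp1.S, at 44.6% and 55.3% for fscn1.L and fscn1.S and at 54.1% for gap43.L. It was at 91.1% to 135% for the 6 genes of stmn2, stmn3 and stmn4, and at 181% for stmn1.L. Over the 16 genes NB1 was below the mean of the others in 9, with a median of 83.4%. The summed level of the neural progenitor markers in NB1 was 41.7% of the mean of the other pools, that of the neuron markers without syt1.L 63.5%, and that of the epidermis markers 194%. The epidermis sum was nearly all itln1.L, at 10033 of 10170 FPKM in NB1. Of the others, grhl1.S was higher in NB1 (28.8 FPKM) than in NB2 to NB4 (8.86 to 12.9 FPKM). Both tp63 genes were lower, tp63.S at 7.44 FPKM in NB1 against 19.9 to 21.7 FPKM in NB2 to NB4. The part of the cell make-up, the pool size and the submission in the NB1 values was not tested. Within the submissions, NB1 was above BB1 for all 16 genes, as it was for 51.1% of all genes tested, and every later neurobot library was above every later biobot library for 15 of 16, as for 30.8% of all genes.

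Sham neurobots against biobots is the comparison that the choice of genes did not use, and asks what an implant of cells without the long separation was accompanied by. Of the 16 genes, 6 passed edgeR's filter on low counts in these 8 libraries, and 0 of them was called. Over all genes tested 5.74% were called, 3.55% higher (808 genes) and 2.19% lower (498 genes). With scaling by library size alone 1303 were higher and 231 lower, and none of the 6 genes changed sign. At an unadjusted p under 0.05 there were 2 of the 6. DESeq2 likewise called 0 with 2 at an unadjusted p under 0.05, while it called 3215 of all 22764 genes tested. The share of all genes under the unadjusted threshold was not computed, so that these counts show no excess. The largest differences were those of fscn1.S, 0.939 ± 0.310 FPKM in sham neurobots and 0.510 ± 0.225 FPKM in biobots, and of basp1.S, 0.539 ± 0.0964 FPKM in sham neurobots and 1.04 ± 0.520 FPKM in biobots (SD, n = 4 each). They differed in sign: the log2 fold change was 0.91 (SE 0.35, edgeR adjusted p = 0.136) for fscn1.S and -0.92 (SE 0.38, edgeR adjusted p = 0.160) for basp1.S.

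Whether these genes were called turned on BB1, the biobot pool of the first submission, which had the highest fscn1.S and the lowest basp1.S of the biobots. Without BB1, where 12.4% of all genes tested were called, 2 of 7 genes were called, fscn1.S with a log2 fold change of 1.25 (SE 0.31, edgeR adjusted p = 0.0301) and basp1.S with -1.14 (SE 0.33, edgeR adjusted p = 0.0489). Other single libraries moved them the other way. Without SH2 the log2 fold change of fscn1.S was 0.65 (SE 0.35, edgeR adjusted p = 0.229). Without BB3 that of basp1.S was -0.55 (SE 0.36, edgeR adjusted p = 0.428). Over all alternatives the adjusted p ran from 0.0301 to 0.284 for fscn1.S and from 0.0489 to 0.428 for basp1.S. The remaining tested genes were not called: the log2 fold change was -0.32 (SE 0.17, adjusted p = 0.256) for basp1.L, -0.29 (SE 0.27, adjusted p = 0.536) for stmn1.L, -0.19 (SE 0.35, adjusted p = 0.777) for stmn1.S and 0.07 (SE 0.38, adjusted p = 0.929) for gap43.S.

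The other 10 genes (stmn2, stmn3, stmn4 and dcx with both homeologs, gap43.L and fscn1.L) had too few counts to be tested with the filter. Their summed CPM (counts scaled to the size of the library) were 194, 340 (339.7), 219 and 216 in NB1 to NB4, 3.85, 1.87, 1.15 and 1.15 in SH1 to SH4, and 0.521, 0.712, 0.777 and 0.631 in BB1 to BB4. The sham and biobot sums did not overlap, and SH1 was the highest of the sham libraries. They rest on 127, 62, 33 and 38 counts in SH1 to SH4 and 14, 25, 23 and 19 counts in BB1 to BB4. How often sums of other genes with so few counts fail to overlap was not computed. Among the single genes, every sham library was above every biobot library for stmn2.L, stmn2.S and gap43.L, 3 of the 16, whereas 6.47% of all genes with at least 1 count showed this. stmn2.L had 10 sham counts and 0 biobot counts, so that the sham level was at least 3.17-fold higher against a floor of 3 counts over the biobot libraries.

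gap43.L had 43, 13, 2 and 5 counts in SH1 to SH4, against 0, 0, 2 and 0 in BB1 to BB4. The ratio of the sham to the biobot level was 29.9 (95% exact counting interval 7.95 to 253, 252.6 before rounding), and 43 of the 63 sham counts were in SH1. With no filter on low counts it was the 1 gene of the 16 called in this comparison (edgeR adjusted p = 0.0355), where 3.69% of all genes were called, and in the fit of all 12 libraries it was not called (edgeR adjusted p = 0.0788). The summed level of the 10 neural progenitor marker genes was 3.30 to 6.06 FPKM in sham neurobots, highest in SH1, and 1.90 to 3.51 FPKM in biobots. Of this, notch1.L and notch1.S together had 1.72 to 4.30 FPKM in sham neurobots, also highest in SH1, and 0.809 to 1.67 FPKM in biobots. In neurobots these 2 had 1.37 to 7.24 FPKM, and the lowest, NB1, lay within the biobot range, so that notch1 did not separate neurobots from biobots. The other 8, a division made after the values were seen, summed to 1.39 to 2.10 FPKM in sham neurobots and 1.09 to 1.95 FPKM in biobots, which overlapped, and SH1 was not the highest. The part of neural cells in the sham values was not tested.

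Since each symbol has 2 homeologs, the share of the .L homeolog in the FPKM of the pair gives a ratio within each library. It was computed where the pair had at least 10 counts in every library compared, which left stmn1, gap43, fscn1 and basp1. In neurobots the share ran from 31.2% to 54.3% for stmn1, 77.5% to 89.0% for gap43, 44.7% to 51.4% for fscn1 and 49.8% to 79.3% for basp1. In all 4 pairs the neurobot range overlapped neither that of sham neurobots nor that of biobots, while over all homeolog pairs this was so for 33.3% against sham neurobots and 28.7% against biobots. As these shares contain the values that picked the genes, they are given without a test.

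The 4 pairs did not move in 1 direction. The .L share was higher in neurobots for gap43, at 84.5% ± 5.35, against 26.2% ± 18.4 in sham neurobots and 1.54% ± 3.07 in biobots, and for fscn1, at 48.7% ± 3.00, against 7.54% ± 4.56 in sham neurobots and 3.46% ± 4.403 in biobots (SD, n = 4 each). It was lower in neurobots for stmn1, at 39.2% ± 10.5, against 60.9% ± 2.38 in sham neurobots and 63.7% ± 6.24 in biobots, and for basp1, at 60.2% ± 13.2, against 94.4% ± 0.625 in sham neurobots and 92.1% ± 2.82 in biobots. NB1 had the highest share of the neurobot libraries for stmn1 and basp1 and the lowest for gap43 and fscn1, and so lay nearest to the other bots in each pair. In the pairs with too few counts outside neurobots, the neurobot share was 52.1% ± 3.47 for stmn2, 52.3% ± 3.50 for stmn3, 52.4% ± 8.52 for stmn4 and 38.6% ± 8.79 for dcx. Reads of near-identical homeologs can be split by the counting, which makes the shares uncertain to an extent not measured here.

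**Figure D4:**
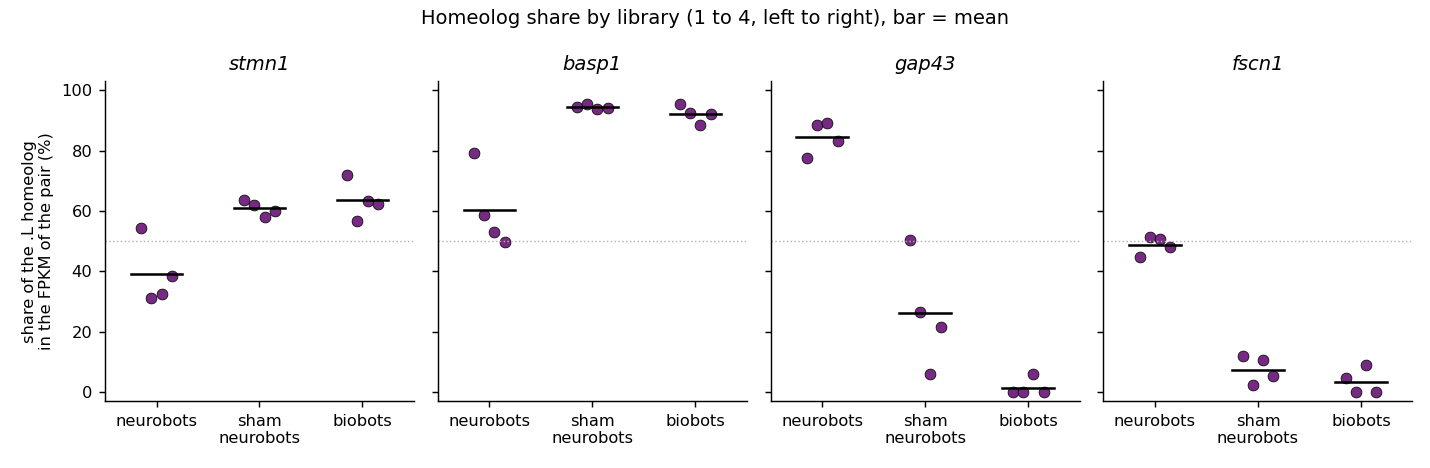
Share of the .L homeolog in the summed FPKM of each pair, in percent, for stmn1, basp1, gap43 and fscn1 in the 4 libraries of each bot type, with the mean as a bar and a dotted line at equal shares. The neurobot points lie below the others for stmn1 and basp1 and above them for gap43 and fscn1, and gap43 has the widest spread in sham neurobots, from 5.98% to 50.5%.

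Between sham neurobots and biobots the .L share of the 4 pairs was compared in a two-sided exact permutation test, whose smallest possible p is 0.0286. P-values were adjusted over these 4 comparisons, and none of the pairs passed. After this adjustment a single pair could not fall under the threshold of 0.05, even at the smallest possible p. The test therefore cannot decide whether the share of any 1 pair differed. The difference was 24.6 percentage points for gap43 (exact p = 0.0571, adjusted p = 0.229), 4.08 points for fscn1 (exact p = 0.229, adjusted p = 0.305), 2.30 points for basp1 (exact p = 0.143, adjusted p = 0.286) and -2.72 points for stmn1 (exact p = 0.514, adjusted p = 0.514). The gap43 ranges overlapped through SH3 (5.98%), which was just below BB3 (6.15%). Without SH1 the gap43 difference was 16.5 points, and with counts in place of FPKM it was 14.4 points. Over all 6043 homeolog pairs the median absolute difference was 2.74 points, with the gap43 difference at percentile 99.2, and 15% of pairs had ranges that did not overlap.

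The other genes of axon outgrowth were taken from a list of 66 symbols in 4 groups, of which 58 were found, as 101 genes. The list was chosen with earlier results of these data known. In neurobots against biobots 58 of 94 genes tested were higher and 3 lower, with a median log2 fold change of 1.61, while 19.5% of all genes tested were higher and 12.3% lower. Against sham neurobots 56 of 95 were higher and 5 lower, with a median of 1.32, while 19.6% and 13.2% of all genes were. In sham neurobots against biobots the filter on low counts kept 62 of the list. These were 22 of microtubule, 34 of actin and membrane, 4 of adhesion and 2 of neurofilament. Genes kept in the neurobot comparisons through their neurobot counts alone could hardly come out lower, so that their calls are a description. The groups differed in how many rose: 25 of 36 microtubule genes (median 3.50), 11 of 12 adhesion genes (median 6.33, or 6.05 with the 3 genes at 0 in biobots set to their lower bound) and 7 of 8 neurofilament genes (median 5.37), but 15 of 38 genes of actin and membrane (median 0.51), where 20 did not pass the test in either direction.

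The microtubule genes of the list act on the same polymer as the stathmins and doublecortin. fez1.S, a kinesin adaptor of axon elongation, had 1.99, 3.41, 2.31 and 2.31 FPKM in NB1 to NB4 and 0 in every sham and biobot library. Its neurobot level was at least 317-fold higher than that of biobots, against a floor of 3 counts over the group. dpysl4.L, of the collapsin response mediators, had 0.430, 1.71, 3.75 and 3.35 FPKM in NB1 to NB4 and 0 in all biobots, with NB1 lowest as for dcx. map1b.L, which encodes a microtubule-associated protein of axons, averaged 1.42 ± 0.307 FPKM in neurobots and 0.00140 ± 0.00280 FPKM in biobots (SD, n = 4 each).

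Among the genes of actin and membrane, to which gap43, basp1 and fscn1 belong by role, dbn1.S, evl.L and coro2b.L rose most. dbn1.S encodes drebrin, which binds actin filaments in the transition zone of the growth cone. It had 6.93, 13.5, 11.8 and 10.5 FPKM in NB1 to NB4, against 0.0989, 0.0650, 0.0222 and 0.0437 FPKM in BB1 to BB4 (log2 fold change 7.50, SE 0.38). evl.L, of the Ena/VASP proteins that lengthen filaments, and coro2b.L, a coronin, rose by 6.34 (SE 0.87) and 5.41 (SE 0.89). Of the same Ena/VASP proteins, evl.S (-1.08), enah.S (-0.13), enah.L (-0.29) and vasp.L (0.33), named after their values were seen, did not pass the threshold. Of the 10 biobot counts of coro2b.L 9 were in BB4, and without BB4 its fitted log2 fold change was 7.93. The 3 genes that fell were dbnl.S (-1.14, SE 0.15), baiap2.L (-1.04, SE 0.26) and baiap2.S (-0.91, SE 0.15), the last named after its value was seen. dbnl encodes a drebrin-like adaptor and baiap2 a membrane-bending adaptor. Against sham neurobots the 5 genes that fell were these 3 with nav2.L and alcam.L, both named after their values were seen. Without NB1, 5 genes fell against biobots, and against sham neurobots 2 fell without NB2, SH1 or SH3, and 3 without SH4.

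Of the adhesion genes, nrcam.S and ncam2.L were at 0 in all biobots, and ncam1.L had 0.952, 3.22, 6.73 and 5.83 FPKM in NB1 to NB4 and at most 0.00942 FPKM in a biobot library. All 3 encode adhesion molecules of the immunoglobulin family on axons. Of the neurofilament genes, prph.S, which encodes peripherin, had 7.84, 10.06, 7.53 and 7.25 FPKM in NB1 to NB4 and 0 to 0.0444 FPKM in biobots. nefm.L and nefm.S, the homeologs of the medium neurofilament subunit, averaged 1.62 ± 0.343 and 1.32 ± 0.296 FPKM in neurobots (SD, n = 4 each). NB1 was the lowest neurobot library for both nefm genes, at 1.35 FPKM for nefm.L and 1.03 FPKM for nefm.S, but not for prph.S.

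**Figure D5:**
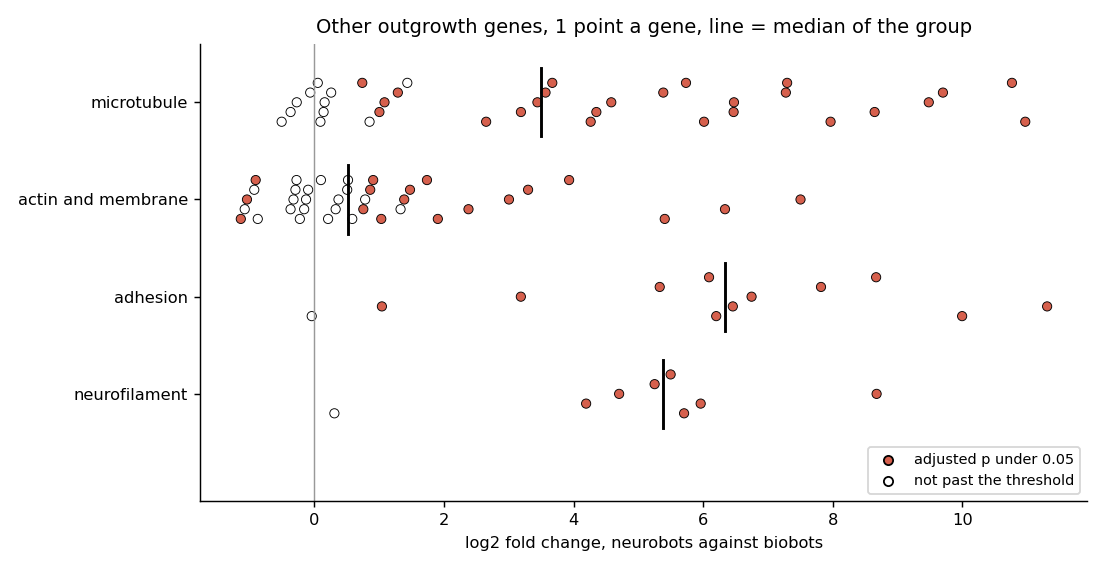
Log2 fold change in neurobots against biobots of the 94 other outgrowth genes tested, 1 point a gene in 4 groups, filled where the edgeR adjusted p was under 0.05, with the median of the group as a line. Adhesion and neurofilament genes lie mostly right of 4, while those of actin and membrane gather around their median of 0.51. Fitted values of genes at or near 0 in biobots depend on the prior count, and genes kept by the filter through neurobot counts alone could hardly come out lower.

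In sham neurobots against biobots, 4 of 62 genes of the list were higher, while 3.55% of all genes were. In edgeR 0 were lower, while 2.19% of all genes were. At an unadjusted p under 0.05 there were 22 of the 62, of which 6 were lower. The share of all genes under the unadjusted threshold was not computed, so that these counts show no excess. DESeq2 called 1 lower, while it called 1477 of all 22764 genes lower. The median log2 fold change was 0.13. pfn2.L, a profilin that delivers actin monomers to filament ends, had 4.42, 4.97, 4.25 and 4.34 FPKM in SH1 to SH4, against 2.43, 2.57, 2.62 and 2.35 FPKM in BB1 to BB4, without overlap (log2 fold change 0.87, SE 0.12, edgeR adjusted p = 0.00656). nav1.L, a neuron navigator at microtubule ends, had 2.35, 1.02, 1.32 and 1.71 FPKM in SH1 to SH4, against 0.558, 0.631, 0.466 and 0.653 FPKM in BB1 to BB4. It rose by 1.49 (SE 0.24, edgeR adjusted p = 0.0103), mapt.L, which encodes tau, by 1.47 (SE 0.35, edgeR adjusted p = 0.0387), and nav2.L, named after its value was seen, by 0.69 (SE 0.15, edgeR adjusted p = 0.0274). The mapt.L call was lost without SH1, SH3, SH4, BB2, BB3 or BB4, each left out alone. In the fit of all 12 libraries 0 of the list were called higher, and without BB1 12 were, in a fit where 7.39% of all genes were higher. Without SH2 there were 8, in a fit where 1612 of all 23251 genes tested were higher. Without SH3, SH4, BB2, BB3 or BB4 there were 2. In those fits the genes higher ran from 187 of all 23087 (without SH4) to 320 of all 23300 (without BB3).

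The genes whose pattern over the 12 libraries was most like that of 3 of the 16 were sought by the root mean square difference of centred log2 CPM, among 18700 genes. For stmn2.L they were tuba1a.S (0.61), tubb2b.S (0.64), both tubulins, and sncb.L (0.68), which encodes beta-synuclein. For gap43.L they were cplx1.S (0.60), which encodes complexin, sncb.L (0.61) and tubb2b.S (0.64). For stmn1.L, whose levels in the 3 bot types overlapped, they were nsun4.L, ndufb6.S and ndufb4.S, each with a difference of 0.15. The measure is a description over 12 libraries that share the bot types.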

How the data were processed

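RNA of 12 pools of whole bots was sequenced on a NovaSeq6000 from non-directional libraries. The authors removed reads with adapters, uncertain bases or low quality, aligned the others with HISAT2 2.0.5 to Xenopus laevis genome version 10.1, assembled them with StringTie 1.3.3b and deposited read counts per gene from featureCounts 1.5.0-p3. They also deposited FPKM per gene, from the counts and the gene lengths. Coordinates are those of the deposited files. DESeq2 1.20.0 is named for the authors' own comparisons, which were not used here. Strand was not recorded, so that overlapping genes cannot be told apart. No gene or protein sequence was used here.

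The genes and all lists were chosen with earlier results of these data known. Counts were tested with edgeR 4.0.16 in R 4.3.3: TMM normalization, filterByExpr (minimum count 10, minimum total 15), and the quasi-likelihood test (glmQLFit, robust) of 8 libraries at a time. P-values were adjusted by Benjamini-Hochberg over every gene tested, at a threshold of 0.05. Standard errors (SE) of edgeR are the absolute log2 fold change divided by the square root of the F statistic. They are approximate and can be too small where a group has few counts. The script was tested on simulated data. Shares were compared with two-sided exact permutation tests over libraries. All 12 comparisons of the .L share were computed, but p-values are given, and adjusted together, only for the 4 of sham neurobots against biobots, a family chosen after seeing the data. Floors (3 counts) and counting intervals cover counting error only.

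Alternatives were DESeq2 1.42.0, scaling by library size alone, no filter, limma 3.58.1 on log2(FPKM + 1) and log2(FPKM + 0.1), all 12 libraries in 1 fit, the replicate number as a block, the submission as a term, each library left out in turn, and the first submission left out. Python 3.11.15 with numpy 2.4.6, pandas 2.3.3, scipy 1.17.1 and matplotlib 3.10.9 was used for the rest.

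All 16 genes are named. Of the outgrowth list, the rule named in each group the 3 genes with the largest log2 fold change among those higher and the 2 lowest among those lower in neurobots against biobots, and 3 genes called in sham neurobots against biobots with the largest absolute change. Genes outside the rule are said to have been named after their values were seen.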

Additional observations from a re-analysis of the deposited data

Results flagged for a closer look

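In 42 groups of 4 libraries, 1 gene in 1 bot type each, the highest and the lowest library were compared with the nearest of the others. In 6 of them 1 library stood apart, by a gap above the 95% critical value of Dixon's test. Chance flags about 1 in 20 groups of normally distributed values, a rate that need not hold for genes with few counts.

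In neurobots, stmn1.S was at 209 FPKM in NB2 and at 78.4 to 96.5 FPKM in the other libraries, and dcx.S was at 0.263 FPKM in NB1 and at 2.39 to 2.62 FPKM in the others. In sham neurobots, fscn1.S was at 1.401 FPKM in SH2, with 0.750 to 0.817 FPKM in the others, and basp1.S was at 0.395 FPKM in SH1, with 0.576 to 0.598 FPKM in the others. In biobots, fscn1.S was at 0.845 FPKM in BB1, with 0.366 to 0.442 FPKM in the others, and stmn3.L was at 0.160 FPKM in BB3, with 0 in the others. The BB3 value of stmn3.L stood for 6 counts, and a compared group with 0 in all libraries but 1 is flagged at any value.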

How the results depend on the processing

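For sham neurobots against biobots, the number of the 16 genes called was 0, but 1 with no filter on low counts and 2 without the first submission. It was 0 to 2 when 1 library was left out, with 2 only without BB1. In this comparison BB1 is all of the first submission, so that leaving out either is the same fit. Genes of the outgrowth list called higher were 4, but 7 with DESeq2, 0 in the fit of all 12 libraries, 2 with the replicate number as a block and 12 without the first submission (2 to 12 with 1 library left out, 12 without BB1). Those called lower were 0, but 1 with DESeq2 and 2 without the first submission (0 to 2 with 1 library left out). Over all genes the calls numbered 1306, but 3215 with DESeq2, 351 in the fit of all 12 libraries and 285 (without SH4) to 2884 (without BB1) with 1 library left out. With library size alone 1303 were higher and 231 lower, in place of 808 and 498, which moved the median over all genes to 0.16 on the log2 scale.

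For the outgrowth list in neurobots against biobots, genes called lower were 3, but 6 without the first submission (3 to 5 with 1 library left out, 5 without NB1). In neurobots against sham neurobots they were 5, but 2 with library size alone (2 to 7 with 1 library left out, 2 without NB2, SH1 or SH3). The stathmin difference of -0.382 points was -0.547 with counts and -0.505 to -0.191 with 1 library left out. The .L share difference was 16.5 to 31.4 points for gap43, 2.58 to 5.99 for fscn1, 1.09 to 3.38 for basp1 and -5.01 to 0.0364 (without BB1) for stmn1 with 1 library left out.

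Of 528 fold changes of the 16 genes in neurobots under the alternatives, 498 were above 0 and 30 below. All 495 of the genes other than stmn1.L were above 0. Since the neurobot values picked the genes, these signs are a property of the choice. The sizes depended on the setting. Against biobots, the alternatives other than leaving 1 library out gave 4.97 to 13.77 for stmn2.L, in place of 13.75. For dcx.L they gave 1.04 to 6.24, in place of 5.97. Deviations of same-numbered libraries correlated over 0.1 in 1, 0 and 1 of 4 pairs in the 3 comparisons. NB1 and BB1, both of the first submission, were at only 0.07, so that this cannot show whether the numbers pair the pools. With the block, 929, 6518 and 7018 genes were called in sham neurobots against biobots, neurobots against biobots and neurobots against sham neurobots, and 0 of the 16 in the first. Genes with a few counts in sham neurobots or biobots are limited by depth.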
